A study of Mus musculus with 2 samples.

Results

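Neutrophil hot-spot squares are the small regions of an irradiated mouse intestine section in which a score of neutrophil genes was highest. The deposited counts of the section labelled wild type were summed over squares of 10 position units, and the 4917 squares with 1000 or more counts were kept. Each square was scored by the summed counts of S100a8, S100a9, Ly6g, Retnlg and Ngp as a share of all its counts. The 5% with the highest score are the hot-spot squares, 246 of the 4917 in this section and of 13202 kept squares in the series. The other 4671 squares of the section, called the remaining squares, are what they were set against. A square is a small region that can hold several cell types, so its levels are not those of a cell.

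The series is on DPF2, a subunit of the BAF chromatin remodelling complex, in the irradiated gut. It holds 1 section labelled DPF2 knockout and 1 section labelled wild type, both from mice given 10 Gy of X-rays, fresh frozen and cut at 10 µm. The sources used here do not give when after the dose the tissue was taken, which stretch of gut it was, the age and strain of the mice, or which part of Dpf2 was deleted and in which cells. Dpf2 itself had 28.0 counts per 1000000 counts (CPM) in hot-spot squares, 23.4 CPM in the remaining squares and 26.0 CPM in the section labelled knockout, so its level does not check that label. With 1 section there is no replicate. No test was made, squares were not used as replicates, and the 95% intervals given with values cover counting error only. The spread within the section is given over 4 sectors by position with 1275, 1243, 1239 and 1160 kept squares, which hold 73, 56, 92 and 25 hot-spot squares.

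Neutrophils are short-lived white blood cells made in the bone marrow. They leave the blood through the endothelium of small vessels, follow chemokines that bind the receptor CXCR2, and release stored granule proteins, proteases and oxidants in injured or infected tissue. In the gut wall they enter where the epithelial barrier is damaged, and they both clear microbes and injure tissue.

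The sequences that bear most on the results are the promoters of 3 chemokine genes that stood together in hot-spot squares, Cxcl1, Cxcl2 and Cxcl3, and of 2 granule genes, Ngp and Mmp8. They are RefSeq sequences of GRCm38.p6, read 5′ to 3′ along the gene, and cover the 150 bases before each annotated start. Capitals mark a kB motif, a form of the site bound by NF-kB (3 G, any 2 bases, 3 T and 2 C), in the chemokine promoters, and TTGCNNAA, a form of the site bound by C/EBP factors, in the granule promoters. Both were searched on both strands.
Cxcl1, chr5:90891095-90891244, plus strand: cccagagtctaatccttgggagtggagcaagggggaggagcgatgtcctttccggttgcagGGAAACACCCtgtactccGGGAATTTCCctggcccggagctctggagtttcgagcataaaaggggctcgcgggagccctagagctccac
Cxcl2, chr5:90903749-90903898, plus strand: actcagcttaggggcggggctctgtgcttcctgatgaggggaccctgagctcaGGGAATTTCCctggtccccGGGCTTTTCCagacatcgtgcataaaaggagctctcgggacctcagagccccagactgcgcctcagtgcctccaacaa
Cxcl3, chr5:90785951-90786100, plus strand: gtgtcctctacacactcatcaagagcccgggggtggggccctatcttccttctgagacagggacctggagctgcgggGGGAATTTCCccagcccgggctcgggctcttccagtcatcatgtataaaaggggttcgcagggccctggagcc
Ngp, chr9:110419658-110419807, plus strand: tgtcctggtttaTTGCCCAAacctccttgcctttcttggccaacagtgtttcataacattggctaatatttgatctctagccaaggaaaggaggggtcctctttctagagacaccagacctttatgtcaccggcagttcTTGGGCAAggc
Mmp8, chr9:7558279-7558428, plus strand: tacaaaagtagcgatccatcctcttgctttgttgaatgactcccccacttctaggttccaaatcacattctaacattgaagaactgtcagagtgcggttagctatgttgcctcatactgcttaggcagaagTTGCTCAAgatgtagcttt

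The kB motif occurs in all 3 chemokine promoters, in Cxcl1 and Cxcl2 at 2 places each, against 535 of all 32851 RefSeq promoter windows (1.63%), each of 300 bases. Among genes at least 2-fold higher in hot-spot squares that have a promoter in the table, 8 of 213 hold it (3.76%), against 152 of 7162 measured genes (2.12%). The 8 are Cxcl3, Cxcl2, Cxcl1, Tnfaip3, Nfkbia, Dmxl2, Ece1 and Casp4. The first 3 are neighbours on chromosome 5 and the ones picked for printing, so they are not separate cases. The share without them was not taken. None of the 5 genes of the score holds the kB motif. TTGCNNAA lies in the windows of 4 of these 5 genes and of 29 of the 213 higher genes (13.6%). It lies in those of 682 of the 7162 measured genes (9.52%), and in 10.8% of all windows. The 5 genes were chosen together as neutrophil genes, and S100a8 and S100a9 are neighbours on chromosome 3, so they are not separate cases. A match is a description of letters and shows no binding.

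The squares were chosen on the 5 genes of the score, so their levels are given as a description. Pooled over squares, these genes made up 0.315% of counts in hot-spot squares and 0.0409% in the remaining squares. Single hot-spot squares ran from 0.185% to 3.002% with a median of 0.263%, on 2 to 79 counts of the 5 genes with a median of 12. The remaining squares ran up to 0.1845% with a median of 0.0345%, and 598 of them held no count of the 5 genes. The last square inside the threshold had 14 of 7583 counts and a score of 0.184623%, and the first one outside had 2 of 1084 counts and 0.184502%. The threshold thus runs through a continuous range, and the shallowest squares are placed by a few counts.

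Of the 5 genes, 4 carry the hot spots. S100a8 and S100a9, which together form calprotectin, a metal-binding protein of the neutrophil cytosol, stood at 1357 and 1342 CPM in hot-spot squares and at 163 and 145 CPM in the remaining squares. Retnlg, a secreted resistin-like protein of mouse neutrophils, stood at 210.3 CPM in hot-spot squares and 23.8 CPM in the remaining squares. Ngp, a neutrophil granule protein, stood at 159 CPM in hot-spot squares and 13.9 CPM in the remaining squares. The log2 ratios of these 4 genes lay between 3.05 for S100a8 and 3.52 for Ngp. Per square, S100a8 had 0 to 47 counts in hot-spot squares with a median of 5, and 0 to 17 counts in the remaining squares with a median of 1, so single squares of both kinds overlap.

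Ly6g, a surface protein by which mouse neutrophils are commonly recognised, went against the label. It had 79.2 CPM (64.1 to 96.7) in hot-spot squares and 62.9 CPM (60.4 to 65.4) in the remaining squares, a log2 ratio of 0.33 (0.02 to 0.63), although it was part of the score. Over the 4 sectors it had 59.5, 93.9, 70.9 and 146 CPM in hot-spot squares and 63.6, 65.9, 59.3 and 61.7 CPM in the remaining squares, so the direction differs between sectors. In the 49 squares with the highest score (the top 1%) Ly6g had 41.0 CPM. It had 86.5 CPM in the other hot-spot squares, 109 CPM in the next class down to the top 20%, 87.7 CPM between 20% and 50%, and 37.7 CPM in the lower 50%. Over the same classes S100a8 had 3031, 1037, 444, 209 and 72.1 CPM. Counts of both genes enter the score that ranks the squares, so their levels by class are partly set by the ranking. Classes ranked without Ly6g were not made. Ly6g belongs to a family of closely related neighbouring genes on chromosome 15, and the sources used here do not give how reads were shared between such copies, so its count is uncertain.

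**Figure D1:**
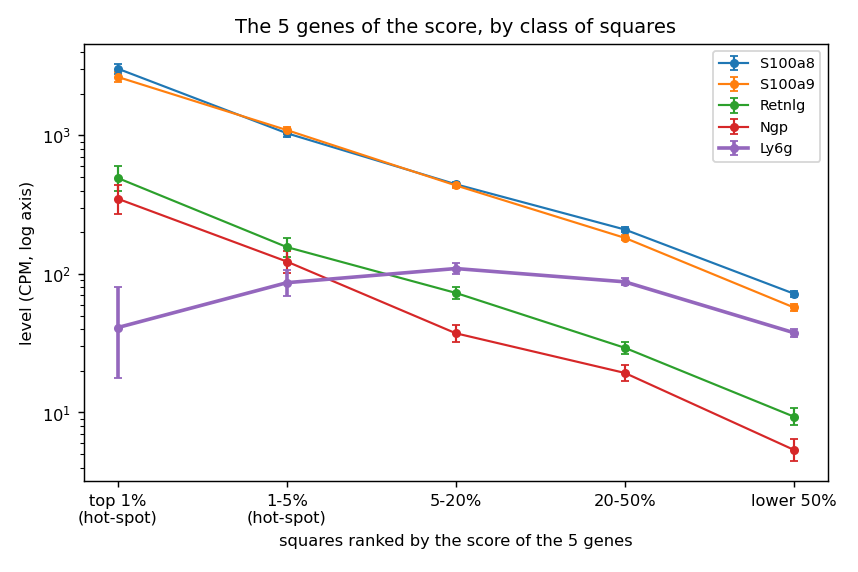
Level in CPM (log axis) of each gene of the score in classes of squares ranked by that score, with exact 95% Poisson intervals. The classes top 1% and 1-5% are the hot-spot squares. Counts of all 5 genes enter the score, so their levels by class are partly set by the ranking. S100a8, S100a9, Retnlg and Ngp are lower in each class than in the one before, while Ly6g has 41.0 CPM in the first class and 109 CPM in the third.

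The 246 squares with the highest share of Ly6g alone had 27 in common with the hot-spot squares (10.98% of either set), where 5.003% of all kept squares are hot-spot squares. The 246 squares richest in the other 4 genes had 234 in common (95.1%), which follows largely from the rule, since these genes hold most of the counts of the score. In the Ly6g-rich squares, S100a8 stood at 231 CPM, against 199 CPM in all other squares, Cxcl2 at 269 against 217 CPM, and the keratin Krt8 at 1303 against 991 CPM. When all kept squares were split into 5 equal groups by their share of pan-epithelial genes, Ly6g went with that share, at 30.8 CPM in the lowest group and 100.2 CPM in the highest, while S100a8 had 261 CPM in the lowest group and 177 CPM in the highest. The same can be seen in single barcodes. Of barcodes with a count of S100a9, 25.8% also had one of S100a8, 5.52% one of Retnlg and 3.21% one of Ngp, against 12.2%, 2.09% and 1.32% of all barcodes, but 5.25% had one of Ly6g, against 4.59% of all barcodes. With Ly6g left out of the score, a choice added after the data were seen, 295 genes outside the score were at least 2-fold higher and 118 at least 2-fold lower, against the 296 and 99 given below.

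**Figure D2:**
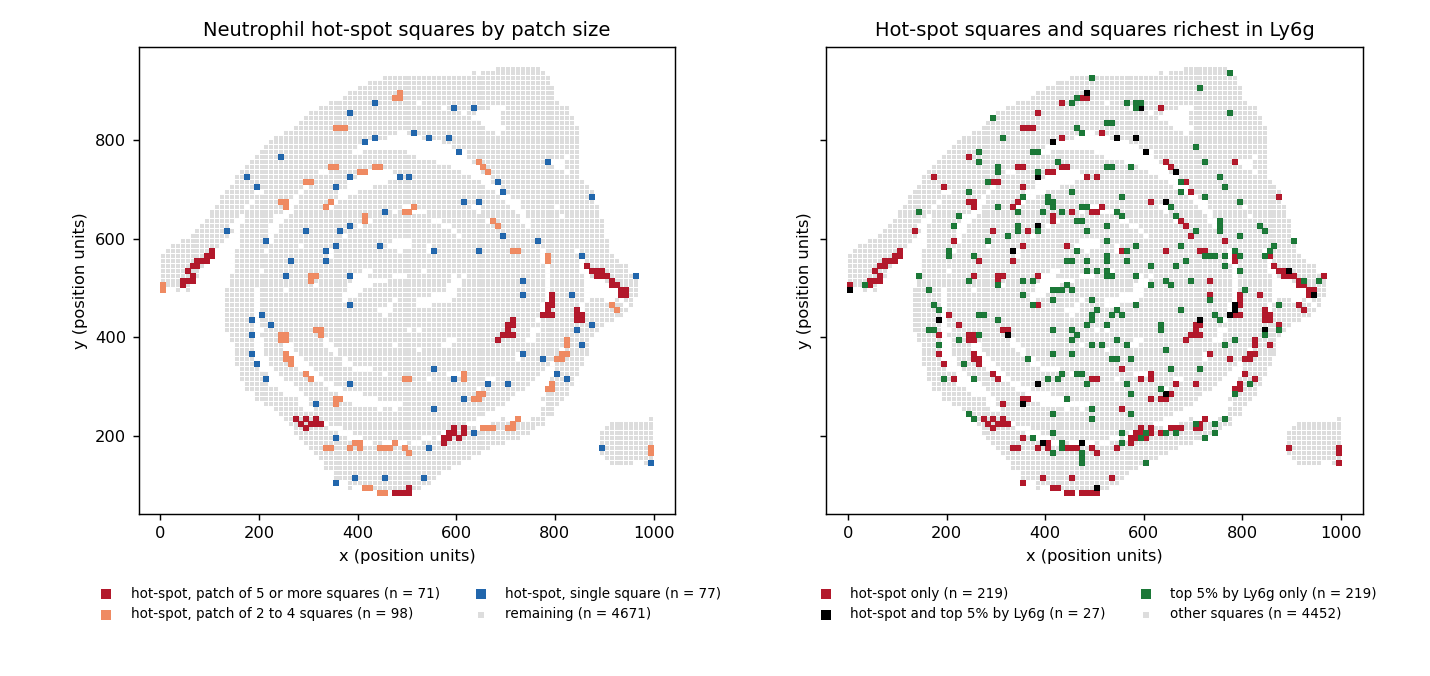
Position of the kept squares of the section labelled wild type, in position units on both axes. The left panel shows hot-spot squares by the size of their patch over the remaining squares in grey. The right panel shows that 27 of the 246 hot-spot squares are also among the 246 squares richest in Ly6g.

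Hot-spot squares were shallower than the rest and more often at the edge of the tissue. They held 2099 barcodes with 1212591 counts, 3.05% of the counts of the kept squares. Their median was 4351 counts, against 7687 in the remaining squares, and they held 578 counts per barcode, against 794. An edge square, one that lacks at least 1 of its 8 neighbours, made up 120 of the hot-spot squares (48.8%) and 1125 of the remaining squares (24.1%). The part of depth and of edges in the results below was not tested. Values at matched depth and with inner squares only are given for some results, not for each list or gene. Matched depth here means a comparison with only the 3252 remaining squares of 1416 to 10269.5 counts. Depth within that range was not matched, so a difference in depth can remain. Of 90 named genes past 2-fold, many of them named for large ratios, 79 stayed past it at matched depth. With inner squares only, 79 of 89 did. The counts of list members past 2-fold were not retaken under either choice.

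Hot-spot squares lay in patches. They formed 122 patches of squares touching by a side or corner, 77 of them single squares, and 169 members (68.7%) lay in patches of 2 or more. Of the neighbours of a hot-spot square, 21.7% were hot-spot squares themselves, where 5.003% of all kept squares are. The 8 patches of 5 or more squares held 71 members, and the 2 largest held 14 each. Summed over the 5 genes, these 8 patches ran from 2268 to 6952 CPM, all above the 409 CPM of the remaining squares. Ly6g ran from 0 to 136 CPM over them and lay above the remaining squares in 4 of 8.

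Outside the 5 genes of the score, 9470 genes had 400 or more counts over the kept squares. Of these, 296 (3.13%) were at least 2-fold higher in hot-spot squares than in the remaining squares, and 99 (1.05%) were at least 2-fold lower. All 296 had counting intervals above 0, which follows from the limits of 400 counts and 2-fold and adds nothing to them. Of the 296, 246 were higher in all 4 sectors. Of the 99, 90 had intervals below 0 and 73 were lower in all 4 sectors. The median log2 ratio of the 9470 genes was 0.01. The shares of 3.13% and 1.05% are the background for every count of list members past 2-fold below. Against only those 3252 remaining squares whose depth lay between the 5th and 95th percentile of the hot-spot squares, 179 genes passed 2-fold on the higher side and 124 on the lower. Here and below, a higher level can mean more cells of a type or more RNA per cell, which these data cannot tell apart.

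Granule genes that the score did not use were higher in hot-spot squares, with 1 exception. Of 14 listed, 6 were measured, and 5 of these were at least 2-fold higher (background 3.13%), with a median log2 ratio of 1.33. Mmp8, the neutrophil collagenase, had 232, 144, 127 and 93.9 CPM in the hot-spot squares of the 4 sectors and 32.6, 29.5, 34.9 and 19.7 CPM in their remaining squares. The ranges do not overlap, and its log2 ratio was 2.46 (2.23 to 2.68). Mmp9, the gelatinase of the tertiary granules, stood at 2.19 (1.81 to 2.55) and was higher in every sector. Lcn2, lipocalin 2, which binds bacterial siderophores and is also made by epithelium, stood at 1.44 (1.22 to 1.64), and Cd177, a surface partner of a granule protease, at 1.16 (0.60 to 1.67).

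Chil3, a chitinase-like protein of neutrophils and macrophages, stood at 1.23 but had log2 ratios of 1.92, -0.30, 0.93 and -0.89 in the 4 sectors. Pglyrp1, a peptidoglycan-binding protein of neutrophil granules, stood at -0.26 (-0.45 to -0.08). Genes of granules made early in the bone marrow were near absent. Elane, neutrophil elastase, had no count in the kept squares, which allows a level of up to 0.0756 CPM, and Mpo, myeloperoxidase, had 2 counts, none of them in hot-spot squares. Ltf and Camp, granule genes of later stages, had 38 of 374 and 28 of 178 counts in hot-spot squares, at log2 ratios of 1.84 and 2.57. These 4 genes fell under the limit of 400 counts and were picked after their values were seen.

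Measured genes of circulating and activated neutrophils were on the higher side. Of 39 listed genes 15 were measured, all 15 had log2 ratios above 0, and 9 were at least 2-fold higher (background 3.13%), with a median of 1.39 (0.77 to 1.92 over the members). Hdc, which makes histamine, ranked first of the 20 highest genes named by rank. It had 87.8, 73.7, 60.2 and 83.5 CPM in the hot-spot squares of the 4 sectors and 10.7, 12.4, 13.2 and 8.39 CPM in their remaining squares, a log2 ratio of 2.73 (2.38 to 3.06). No remaining level reached the lowest hot-spot level.

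G0s2, an inhibitor of fat breakdown that neutrophils express strongly, stood at 2.04 (1.78 to 2.29) and Trem1, a receptor that amplifies inflammatory signals, at 1.98 (1.58 to 2.37). Il1r2, the decoy receptor for IL-1, had 246, 255, 277 and 229 CPM in the hot-spot squares of the 4 sectors and 91.3, 87.2, 94.7 and 68.9 CPM in their remaining squares, with no overlap. Its log2 ratio was 1.61. The chemerin-binding receptor Ccrl2 stood at 1.92, the inhibitory receptor Cd300lf at 1.56, the C-type lectin Clec4d at 1.42, the platelet-activating factor receptor Ptafr at 1.39 and Wfdc17 at 1.34. The other 6 stayed within 2-fold, from the transcription factor Mxd1 at 0.84 through Lrg1 at 0.79, Msrb1 at 0.77, the Fc receptor Fcgr4 at 0.76 and Slfn4 at 0.59 to Ifitm1 at 0.22. Among the listed genes under 400 counts were the receptors Cxcr2, with 29 of 182 counts in hot-spot squares and a log2 ratio of 2.59, and Csf3r, with 19 of 221 counts and 1.58. Others under the limit stood low, the receptor Trem3 with 10 of 221 counts at 0.59 and Mrgpra2b with 10 of 364 counts at -0.16. These 4 were picked after their values were seen.

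**Figure D3:**
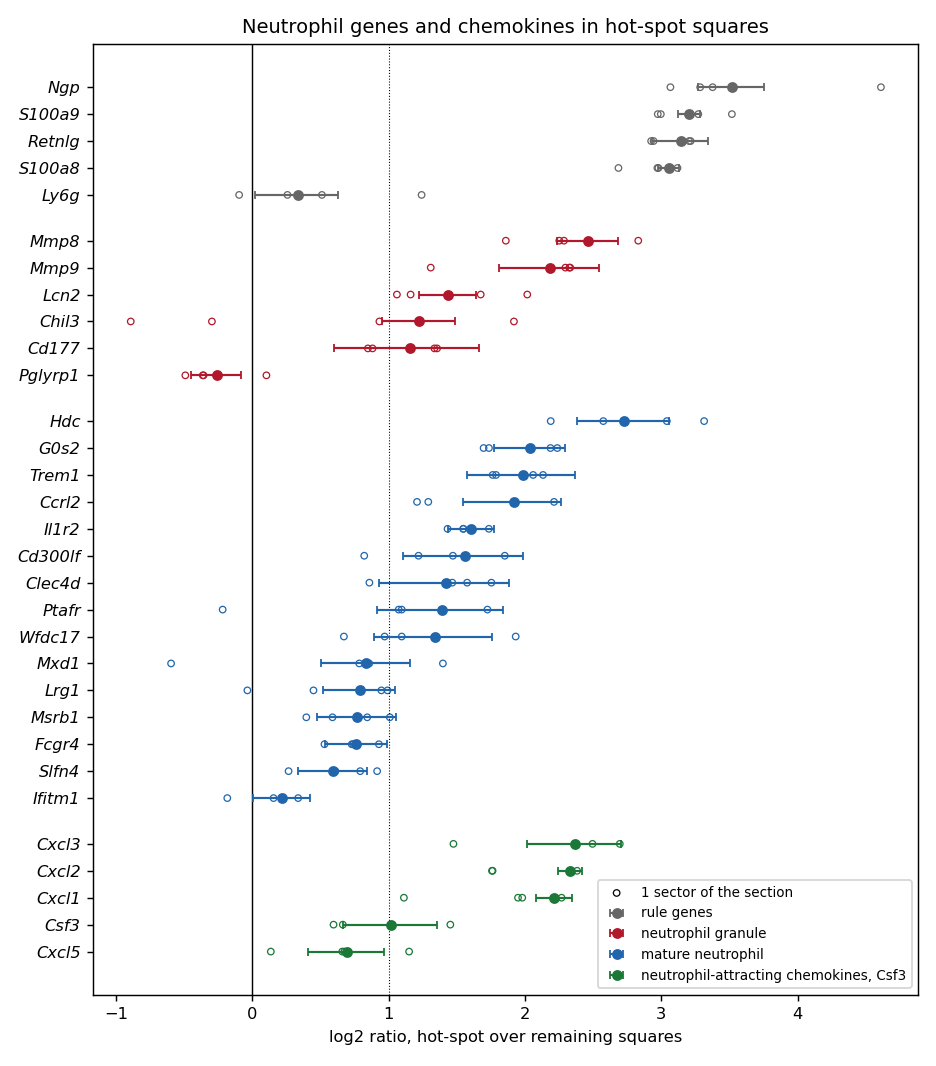
Log2 ratio of hot-spot over remaining squares for the genes of the score and for every measured gene of the lists of granule genes, mature neutrophil genes and neutrophil-attracting chemokines. Filled points and bars are the pooled ratio with its 95% counting interval, open circles are the 4 sectors (none where a sector has 0 counts), and the dotted line marks a 2-fold higher level. Ly6g and Pglyrp1 lie far left of the other genes of their groups.

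The chemokines that attract neutrophils had the highest median of the lists outside the score with 3 or more measured members. Of 7 listed genes 5 were measured and 4 were at least 2-fold higher (background 3.13%), at a median log2 ratio of 2.22. Cxcl2, a ligand of CXCR2, had 1206, 657, 1119.8 and 469 CPM in the hot-spot squares of the 4 sectors and 231, 194, 222 and 139 CPM in their remaining squares. Pooled, it had 979.7 CPM in hot-spot squares and 195 CPM in the remaining squares, a log2 ratio of 2.33 (2.24 to 2.42), and a count of it was found in 208 of 246 hot-spot squares (84.6%) and 3005 of 4671 remaining squares (64.3%).

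Cxcl1 and Cxcl3, neighbours of Cxcl2 on chromosome 5 and ligands of the same receptor, stood at 2.22 (2.08 to 2.35) and 2.37 (2.01 to 2.70), with every sector higher. These are the 3 genes whose promoters are printed above. Csf3, the growth factor that drives neutrophil production, stood at 1.02 (0.67 to 1.35) with no count in the hot-spot squares of sector 4, and Cxcl5, a chemokine of epithelium and other cells, at 0.69 (0.41 to 0.96). The squares with the highest share of this list had 96 of 246 in common with the hot-spot squares (39.0% of either set). Of all kept squares, 5.003% are hot-spot squares. Sets drawn from the mediator and endothelial lists shared 89 and 81 squares. Such sets were drawn from some lists only, and not from the granule or mature neutrophil lists.

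Chemokines for other leukocytes were split. Of 14 measured, 3 were at least 2-fold higher (background 3.13%) and 2 at least 2-fold lower (background 1.05%), with a median of 0.55. Ccl4, a chemokine made by activated myeloid cells, stood at 2.46 (2.19 to 2.72), and at 0.33 in sector 4. Its relative Ccl3, under the limit with 55 and 211 counts, stood at 3.05 (2.59 to 3.48). Cxcl14, a chemokine of stroma and epithelium, stood at 1.64 and Cxcl10, an interferon-induced chemokine for T cells, at 1.09. The 2 lower genes were Ccl25, a chemokine of small intestinal epithelium, at -1.05 and Cxcl13, which draws B cells into follicles, at -1.21, both named after their values were seen.

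Mediators of inflammation followed the chemokines. Of 15 measured genes of the IL-1, IL-6, TNF and prostaglandin systems, 14 had log2 ratios above 0 and 5 were at least 2-fold higher (background 3.13%), with a median of 0.86 (0.65 to 1.53). Il1b, the cytokine interleukin 1 beta, had 442, 392, 507 and 229 CPM in the hot-spot squares of the 4 sectors and 116, 113, 142 and 84.8 CPM in their remaining squares, at a log2 ratio of 1.96. Ptgs2, the inducible enzyme of prostaglandin synthesis, had 1362 CPM in hot-spot squares and 365 CPM in the remaining squares, at 1.90 (1.82 to 1.97), with the prostaglandin E synthase Ptges at 1.53. Osm, a cytokine of the IL-6 family made by myeloid cells, stood at 1.88, and its relative Lif at 0.34. The remaining one of the higher genes was the inhibitory cytokine Il10 at 1.39, named after its value was seen.

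NF-kB signalling switches on its own inhibitors, and these were among the higher genes. All 16 measured genes of this list had log2 ratios above 0 and 6 were at least 2-fold higher, with a median of 0.74 (0.54 to 1.26). The ubiquitin-editing inhibitor Tnfaip3 had 242 CPM in hot-spot squares and 59.8 CPM in the remaining squares, at 2.01 (1.83 to 2.19), although its ratio in sector 4 was 0.52. The immediate target Ier3 stood at 1.58 and Nfkbia, the inhibitor that holds NF-kB in the cytoplasm, at 1.33. Immediate early genes had a median of 0.71 over 19 measured genes, 5 of them at least 2-fold higher, and the phosphatase Dusp1 stood at 1.11.

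Receptors of myeloid cells and macrophage genes were also on the higher side. Of 11 measured Fc and paired receptors, all had log2 ratios above 0 and 5 were at least 2-fold higher. The inhibitory receptors Lilrb4a and Lilr4b stood at 1.82 and 1.65, and they are near copies between which reads can be split. Of 12 measured macrophage genes, all had log2 ratios above 0, 3 were at least 2-fold higher, and the median was 0.83 (0.64 to 1.02). The 3 were Cd14, a co-receptor for bacterial lipopolysaccharide that neutrophils also carry, at 1.87, and the adaptors Tyrobp and Fcer1g, at 1.12 and 1.02, which neutrophils express too. C1qa, a complement protein of tissue macrophages, had 259.8 CPM in hot-spot squares and 158 CPM in the remaining squares, at 0.72, and C1qc stood at 0.90. Tyrobp stood at -0.91 in sector 4. None of 3 measured genes of the phagocyte NADPH oxidase was past 2-fold. Their median was 0.47, and the summed list was lower in sector 4, at 177 CPM in hot-spot squares and 189 CPM in the remaining squares. Of 5 measured monocyte genes, 1 was at least 2-fold higher (background 3.13%), with a median of 0.47.

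Endothelial genes were higher almost throughout. Of 10 measured, 9 were at least 2-fold higher (background 3.13%), with a median of 1.35 (1.03 to 1.75). Plvap, the protein of the diaphragms of fenestrated capillaries, had 235, 184, 273 and 209 CPM in the hot-spot squares of the 4 sectors and 84.0, 75.2, 89.5 and 66.2 CPM in their remaining squares, at 1.59 (1.41 to 1.77). Kdr, a receptor for VEGF, stood at 1.75, Emcn at 1.75, the clotting factor carrier Vwf at 1.47 and the junction protein Cdh5 at 1.39. Fabp4, a fatty acid carrier of capillary endothelium and fat cells, stood at 1.97 (1.85 to 2.10). Of 8 measured adhesion genes, 3 were at least 2-fold higher (background 3.13%), with a median of 0.57 (0.07 to 1.22). They were the neutrophil integrin chains Itgb2 and Itgam at 1.22 and 1.16, and Pecam1, which is also on the endothelial list, at 1.03. The endothelial partners Icam1, Vcam1 and Madcam1 stood at 0.79, 0.35 and 0.35. Selp, the endothelial selectin that first slows neutrophils, stood at 1.62 on only 28 and 290 counts, under the limit.

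Genes of clotting were higher with them. Of 10 measured coagulation and fibrinolysis genes, all had log2 ratios above 0 and 5 were at least 2-fold higher, with a median of 1.06 (0.51 to 2.01). Procr, the endothelial protein C receptor, stood at 2.03, the plasminogen activators Plau and Plat at 2.01 and 1.46, the urokinase receptor Plaur at 1.17 and thrombomodulin, Thbd, at 1.13. Of 18 measured genes of injured stroma, 5 were at least 2-fold higher (background 3.13%) and 13 had log2 ratios above 0, with a median of 0.74 (-0.08 to 1.10), and Plau and Plaur belong to both lists. The collagenase Mmp13 had 280, 295, 247 and 334 CPM in the hot-spot squares of the 4 sectors and 72.2, 65.2, 58.0 and 42.6 CPM in their remaining squares, at 2.21 (2.04 to 2.37), and Mmp10 stood at 1.69. Fibroblast genes had a median of 0.26, with none of 10 measured genes past 2-fold.

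The 20 highest genes with 1 sign in all sectors also held genes of no list. Ifitm6, an interferon-induced membrane protein of myeloid cells, stood at 2.44 (2.09 to 2.78), the leukotriene receptor Cysltr2 at 2.19, the growth factor Bmp2 at 2.09, the membrane collagen Col13a1 at 2.01 and Arap3, a signalling regulator of endothelium, at 1.96. The 10 lowest genes by the same rank, from Cd79b at -2.54 to the transcription factor Mlxipl at -1.77, had only 3 or 4 counts each in hot-spot squares. Of the leukotriene synthesis list only Lta4h had 400 counts, at -0.34, while Alox5ap, which passes the substrate to the first enzyme of that path, had 49 and 281 counts and stood at 2.47.

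Plasma cell transcripts were high and B cell transcripts low in hot-spot squares. Igha, the heavy chain of the IgA that gut plasma cells secrete, had 7559 CPM in hot-spot squares and 2471 CPM in the remaining squares, at 1.61, with every sector higher, and Igkc and Jchain stood at 1.73 and 1.45. Of 6 measured plasma cell genes, 4 were at least 2-fold higher. Of 4 measured B cell genes, 3 were at least 2-fold lower (background 1.05%), Cd79b with 4 and 736 counts at -2.54, Ighd with 2 and 491 counts at -2.95 and Ighm at -1.81. These B cell values rest on few counts in hot-spot squares, and Ighm and Ighd were higher in sectors 1 and 3, at 0.98 and 0.14 for Ighm and 0.67 and 0.40 for Ighd.

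Haemoglobin transcripts were uneven over the hot spots. The 3 measured genes were at least 2-fold higher, but Hba-a2 had 108, 63.7, 258 and 31.3 CPM in the hot-spot squares of the 4 sectors and 63.9, 40.6, 64.1 and 43.6 CPM in their remaining squares, so sector 3 carries most of the difference. Over the 8 larger patches the summed red blood cell list ran from 0 to 1104 CPM, above the remaining squares in 4 of 8. The haemoglobin genes are near copies between which reads can be split.

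Epithelial genes were not at high levels in hot-spot squares. The 15 pan-epithelial genes had a median log2 ratio of -0.11 with none past 2-fold, and the summed list had 7174 CPM in hot-spot squares and 7714 CPM in the remaining squares, so epithelium was present in both. Paneth cell genes, which encode the antimicrobial peptides of the crypt base, had a median of -0.33 (-0.39 to -0.28) over 17 measured genes with none past 2-fold, and it was 0.11 against remaining squares of matched depth. Defa24 had 28403 CPM in hot-spot squares and 36705 CPM in the remaining squares. Goblet cell genes had a median of -0.40 over 11 genes, enterocyte genes -0.58 over 13 and proliferation genes -0.37 over 23, with 0, 1 and 1 genes at least 2-fold lower, the fatty acid carrier Fabp1 on 8 and 599 counts and the mitotic kinase Bub1 on 5 and 429 counts. The summed enterocyte list was higher in hot-spot squares in 2 of 4 sectors, at 707 CPM in hot-spot squares and 543 CPM in the remaining squares of sector 2 and at 473 and 408 CPM in sector 3. Reg3b, an antibacterial lectin of epithelium, stood at -1.08 (-1.23 to -0.93).

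Genes of the fetal-like state of injured epithelium were mostly slightly higher, with few past 2-fold. Of 21 measured genes 17 had log2 ratios above 0, and the summed list was higher in all 4 sectors. At least 2-fold higher was 1 gene (background 3.13%), Ereg, a ligand of the EGF receptor. It had 2049 CPM in hot-spot squares and 847 CPM in the remaining squares, at 1.27 (1.22 to 1.33). The relatives of Ereg, Areg and Hbegf, stood at 0.84 and 0.71, the annexins Anxa8, Anxa1 and Anxa2 at 0.68, 0.53 and 0.08 and the cornified envelope gene Sprr2a3 at 0.22. The list's median was 0.22 (0.08 to 0.50). Lists of interferon response, hypoxia and glycolysis, and p53 targets had medians of 0.16, 0.08 and 0.40. Of the p53 targets, Plk2 stood at 1.48 and Cdkn1a at 0.65. Of enteric neuron and glia genes, 1 of 6 was at least 2-fold lower, Elavl4, on 3 and 414 counts.

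**Figure D4:**
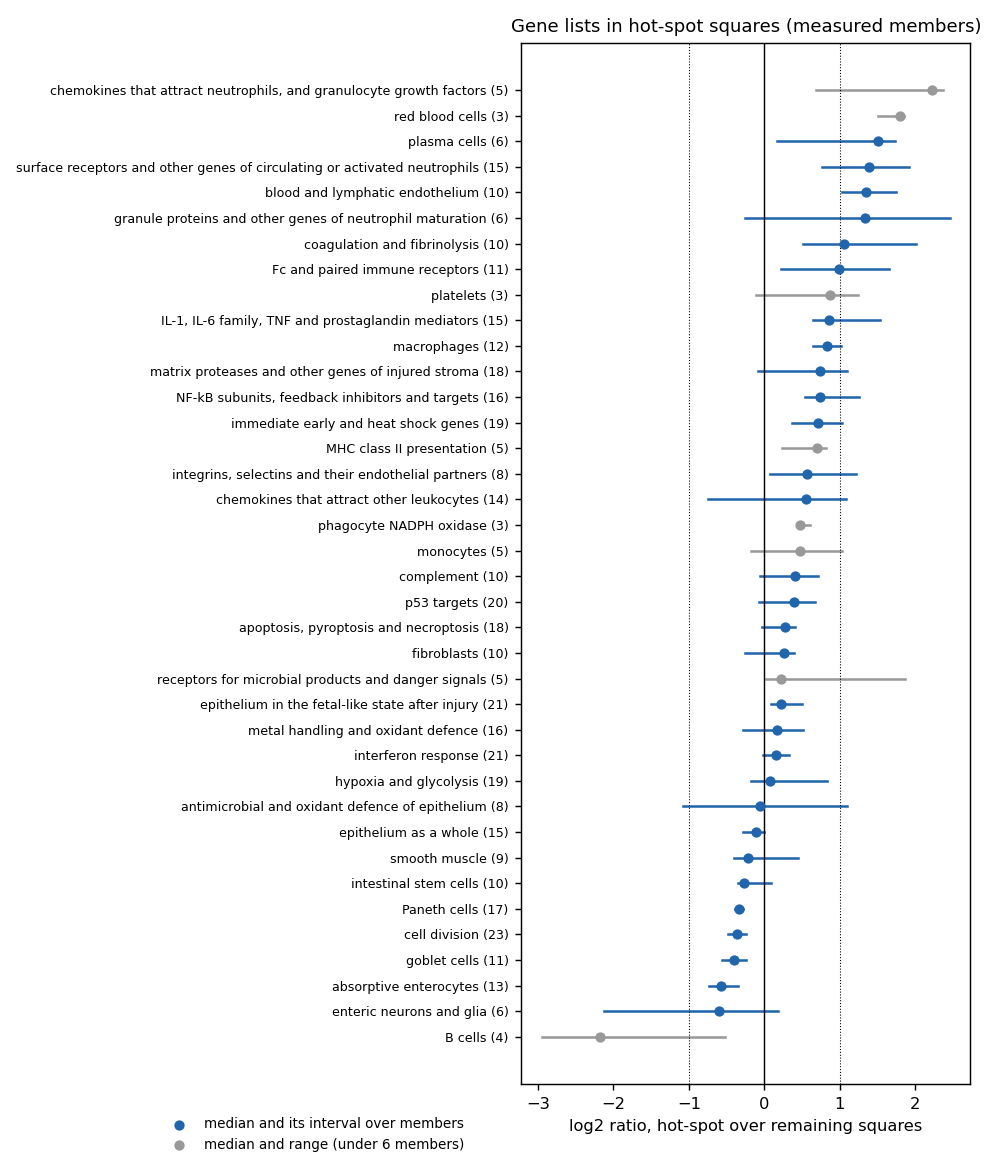
Median log2 ratio of hot-spot over remaining squares for each list with 3 or more measured members (their number in brackets). Blue bars are the exact binomial interval of the median over members, which holds no counting error, and grey bars the range where fewer than 6 members were measured. Neutrophil-attracting chemokines are at the top with 2.22 and B cell genes at the bottom with -2.17, and dotted lines mark 2-fold.

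Levels were lower further from the hot-spot squares. The summed neutrophil-attracting chemokines had 1644 CPM in hot-spot squares, 658 CPM in the 944 squares that touch one, 390.3 CPM at 2 squares, 329 CPM at 3 to 4, 292 CPM at 5 to 9 and 123 CPM in the 115 squares at 10 or more. Il1b had 438, 175, 113, 98.0, 86.4 and 50.7 CPM over the same steps, and mature neutrophil genes 1710, 865, 727, 687, 727 and 636 CPM. The greatest part of each difference lay between hot-spot squares and the squares touching them. The 5 genes of the score had 608 CPM in touching squares and 194 CPM at 10 or more, but Ly6g had 65.5 and 63.6 CPM.

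Endothelial, plasma cell and macrophage genes were lower over the first steps too, and B cell genes went the other way. Plasma cell genes had 11410.3 CPM in hot-spot squares, 5392 CPM in touching squares and 3623 CPM at 2 squares, and endothelial genes 826, 426 and 329.5 CPM. B cell genes had 39.6, 47.4, 45.5 and 81.2 CPM up to 3 to 4 squares, and 404 CPM at 5 to 9 and 371 CPM at 10 or more. Median depth over the steps was 4351, 6743, 7786, 8385, 7455 and 7510 counts per square, so depth differs most between hot-spot squares and the rest.

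**Figure D5:**
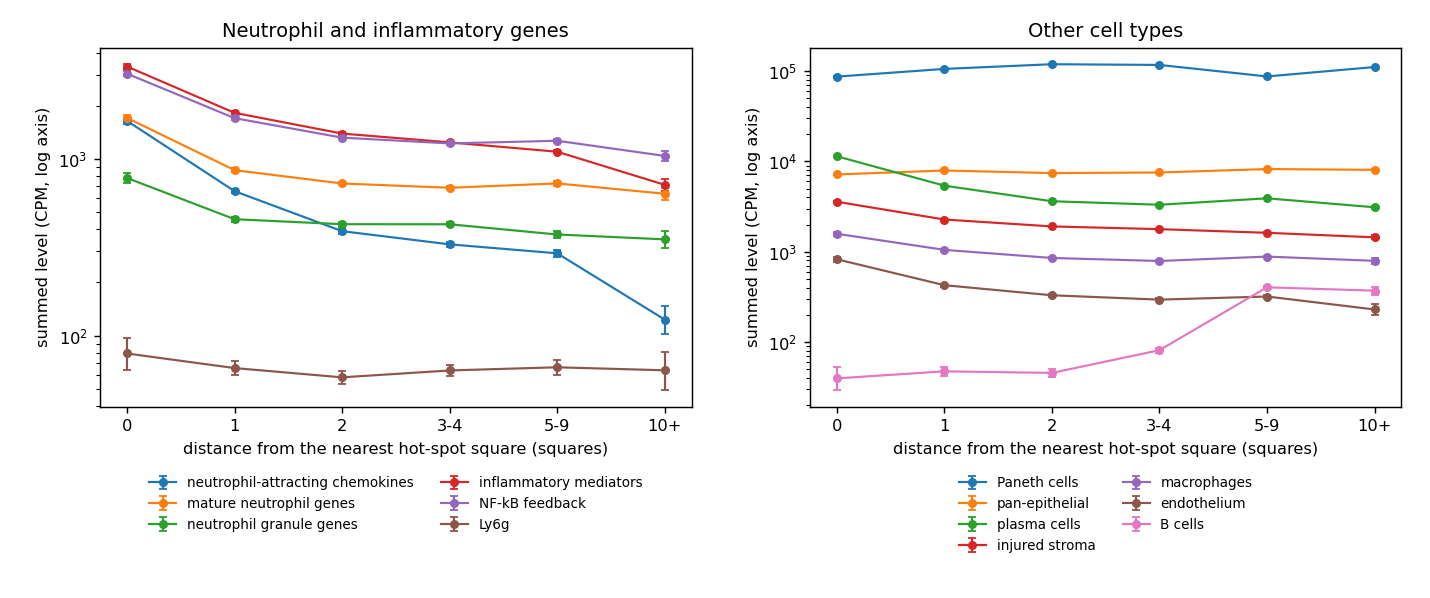
Summed level of each list, and of Ly6g, in CPM (log axis) by distance from the nearest hot-spot square, counted in squares, with exact 95% Poisson intervals. The first point of each line is the hot-spot squares themselves, and the last the 115 squares at 10 or more. Chemokines run from 1644 CPM at the left to 123 CPM at the right, and Ly6g from 79.2 to 63.6 CPM.

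In summed lists, all 8 larger patches lay above the remaining squares in granule genes (599 to 1371 CPM, against 421 CPM), mature neutrophil genes (1381 to 2448 CPM, against 735 CPM), neutrophil-attracting chemokines (887 to 4406 CPM, against 392 CPM), inflammatory mediators (2305 to 6120 CPM, against 1349 CPM) and endothelial genes (615 to 1616 CPM, against 329.8 CPM). The patch of 5 squares with the highest score, at 6952 CPM, also had the highest level of chemokines. Of the single genes of the score, Ngp lay above the remaining squares in 7 of 8 patches and had no count in the other. Pan-epithelial genes ran from 4366 to 9872 CPM and lay above the remaining squares in 3 of 8, and Paneth cell genes in 0 of 8.

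Hot-spot squares were also set against squares rich in genes of macrophages, the other main phagocytes of the gut wall. The top 5% by the macrophage list shared 54 squares with the hot spots (21.95% of either set), and the 192 squares of each kind that the other lacked were compared over 3620 genes with 100 or more counts in them, leaving out genes that chose either set. Their median depth was 4255.5 counts in hot-spot squares and 5817.5 counts in macrophage-rich squares. Of these, 12 (0.331%) were at least 2-fold higher in hot-spot squares and 124 (3.43%) at least 2-fold lower. The 5 furthest on the higher side were G0s2 with 109 CPM in hot-spot squares and 28.6 CPM in macrophage-rich squares (log2 ratio 1.93), Mmp8 at 1.84, Plau at 1.25, Cdh5 at 1.25 and the activin subunit Inhba at 1.18.

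The 5 furthest on the lower side were genes of B cells and lymphoid tissue, Cd79b at -6.19, Ighm at -5.58, H2-Ob at -5.56, Cd79a at -5.12 and the lymphoid chemokine Ccl21a at -5.11. Cd79b had 3 counts in hot-spot squares and 258 in macrophage-rich squares. Cxcl2 and Cxcl1 stood at 0.93 and 0.68, and Il1b at 0.54. Mmp8 and G0s2 were named for having the largest ratios in this comparison, so that the chemokines stood below them follows from that choice. Of endothelial genes with 100 or more counts here, Cdh5 stood at 1.25, Plvap at 0.83, Egfl7 at 0.35, Eng at -0.05, Pecam1 at -0.10 and Lyve1 at -0.27. Of plasma cell genes, Jchain and Sdc1 stood at 0.32 and 0.31, Igha at 0.08, Igkc at 0.02 and Xbp1 at -0.09. NF-kB genes ran from Ier3 at 0.81 through Nfkbia at 0.23 and Tnfaip3 at 0.11 to Birc3 at -0.81. Apart from Cdh5, all of these were within 2-fold between the 2 kinds of squares. Ly6g helped choose the hot-spot squares, so its 88.6 CPM there, against 44.2 CPM in macrophage-rich squares, is partly set by the rule. In the squares richest in the other 4 genes of the score, Ly6g had 58.0 CPM, against 63.5 CPM in all other squares.

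A further reading came from barcodes that had not chosen the squares. When 240 squares were chosen on barcodes at odd lines of the barcode list, the 5 genes made up 0.221% of the counts of even-line barcodes in the chosen squares and 0.0426% in the others. On those even-line barcodes S100a8 stood at a log2 ratio of 2.56 (2.44 to 2.68), Ngp at 2.89 (2.50 to 3.27), Mmp8 at 2.11 (1.76 to 2.45) and Cxcl2 at 2.05 (1.92 to 2.18). Ly6g stood at 0.07 (-0.41 to 0.51). Odd-line and even-line barcodes lie in the same squares, so they are not separate samples of the tissue. In the hot-spot squares Ly6g gave 96 of the 3817 counts of the score and Ngp 193, so both weigh little in the choice.

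The same score was taken in the section labelled knockout. The 5 genes together had 3148 CPM in hot-spot squares, against 1.87 CPM in the section labelled knockout, where 8285 kept squares held 168 counts of them. No count was found in 8159 of those squares (98.5%), and 1 square reached the score of the hot spots, with 20 of 8170 counts. S100a8 had 0.725 CPM there, S100a9 0.847 CPM, Retnlg 0.268 CPM, Ngp 0.0111 CPM on 1 count and Ly6g 0.0223 CPM on 2 counts. With 1 section per genotype, a difference between the sections cannot be told apart from one between these animals, gut stretches or preparations.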

How the data were processed

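Spatial transcriptomes of 2 fresh-frozen mouse intestine sections were used, 1 per genotype. The authors deposited whole-number counts per gene and barcode with a position for each barcode, made with BSTMatrix and viewed in BSTViewer, per the labels' protocols, and GRCm38 is the build in the submitters' processing notes. The sources used here do not give the aligner, any collapsing of molecular identifiers or the unit of position. The section labelled wild type had 50970 barcodes with 39824941 counts, and the one labelled knockout 88056 barcodes with 89754886 counts. Both lists of barcodes name the same array positions, so 45557 names occur in both.

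Counts were summed over squares of 10 position units, squares under 1000 counts were dropped, and levels are pooled counts per 1000000 counts (CPM). Genes with 400 or more counts over the kept squares count as measured, and those past 2-fold were counted. Levels have exact Poisson intervals, ratios exact binomial (Clopper-Pearson) intervals at 95%, both covering counting error only, and list medians an interval from the order of their members. The ratio code was tested on simulated data. Genes of the X and Y chromosomes and of mitochondria had 0 counts. The members and the 46 gene lists were chosen with earlier results of these data known.

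Named were the genes of the score, all measured members of 3 neutrophil lists, up to 5 members of each other list by absolute ratio and its 2 most abundant, the 20 highest and 10 lowest genes with 1 sign in 4 sectors, and the 5 furthest each way from macrophage-rich squares. Predicted genes, ribosomal protein genes, immunoglobulin segments and haemoglobins were left out of the ranked genes. Alternatives changed the threshold, grid, score genes, squares compared, total, scaling, filters, barcodes and sector. Tools were Python 3.11.15, numpy 2.4.6, scipy 1.17.1, pandas 2.3.3 and matplotlib 3.10.9.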

Additional observations from a re-analysis of the deposited data

How the results depend on the processing

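Squares are not replicates, so what follows gives values only, and the cause of each change was not tested. The neutrophil granule, mature neutrophil, NF-kB, endothelial, plasma cell, coagulation and Fc receptor lists kept a median above 0 under every alternative. Of 90 named genes past 2-fold in either direction, 57 to 90 stayed past it under alternatives on the whole section, and all kept their sign there but Nqo1, at 0.093 with the top 10% of squares. The log2 ratio of the share of the 5 genes of the score, 2.94 as reported, was 2.74 with squares of 3000 or more counts, 3.42 with the top 2% of squares, 2.58 with the top 10%, 2.45 with squares of 20 position units and 2.35 with a score of Ly6g, Retnlg and Ngp. It was 3.10 against squares that touch no hot spot, 2.81 at matched depth, 3.02 as a mean over squares, 2.38 on even-line barcodes, and 2.68, 2.85 and 3.08 in sectors 2, 3 and 4.

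The 296 higher genes became 460 with the top 2%, 147 with the top 10%, 184 with squares of 20 units, 100 with the score of Ly6g, Retnlg and Ngp, 179 at matched depth, 466 among genes of 200 or more counts, 3087 among genes with any count, and 468, 568 and 1011 in sectors 1, 2 and 4. The 99 lower genes became 543 with the top 2%, 17 with the top 10%, 187 as a mean over squares, 295 and 733 with the lower filters, 235 on even-line barcodes, and 608, 539, 422 and 770 in sectors 1 to 4.

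The median of the neutrophil-attracting chemokines, 2.22, was 2.48 with the top 2% and 2.52 against squares that touch no hot spot, and it was lowest at 1.83 with the top 10%, 1.28 with the score of Ly6g, Retnlg and Ngp, and 1.76, 1.48 and 1.45 in sectors 2, 3 and 4. With the score of Ly6g, Retnlg and Ngp, mediators had 0.51 and macrophage genes 0.58, and macrophage genes had 0.28 in sector 4. Paneth cell genes, -0.33, had -0.22 with the top 2%, -0.16 with squares of 20 units, -0.47 with the score of Ly6g, Retnlg and Ngp, 0.11 at matched depth, -0.24 on even-line barcodes, and -0.17, -0.64 and -0.74 in sectors 1, 2 and 4. Pan-epithelial genes, -0.11, had 0.022 with the top 10%, 0.10 with the score of Ly6g, Retnlg and Ngp, and -0.29, 0.052 and 0.19 in sectors 1, 2 and 4. The log2 ratio of chemokines in touching over further squares, 0.98, was 0.89 with squares of 3000 or more counts, 1.16 with the top 2%, 0.81 with the top 10%, 0.78 with squares of 20 units, 0.75 with the score of Ly6g, Retnlg and Ngp, and 0.82, 0.92 and 0.86 in sectors 2, 3 and 4.

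Alternatives chosen after seeing the data left out Ly6g, edge squares, hot-spot squares of under 5 counts of the score, or the 8 larger patches. With inner squares only, the share had 2.86, the lower genes were 225, Paneth cell genes had -0.23 and the chemokine ratio of touching squares 0.85. Outside the 8 patches these were 2.86, 171, -0.27 and 0.87.

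In single sectors some directions turned. Enterocyte genes, -0.58, had 0.059, 0.49 and 0.21 in sectors 1, 2 and 3, genes of the fetal-like state, 0.22, had -0.031 and -0.024 in sectors 1 and 3, p53 targets, 0.40, had -0.091 in sector 1, and other chemokines, 0.55, had -0.097 in sector 4. B cell genes had 0.27 in both sectors 1 and 3, with Ighm at 0.98 and 0.14 and Ighd at 0.67 and 0.40. In sector 2 Chil3 had -0.30 and Cxcl13 0.74, and in sector 3 Cxcl13 had 0.29 and Fabp1 0.21. In sector 4, with 25 hot-spot squares, red blood cell genes and Hba-a2 had -0.48, Chil3 -0.89, Casp4 -0.91, Tyrobp -0.91, Hmox1 -0.34, Ptafr -0.22 and Slc16a3 -0.011.

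No paired analysis was possible because the series holds 1 section per genotype. Depth limits most the genes under 400 counts and the 10 lowest named genes, which rest on 3 or 4 counts each in hot-spot squares.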

Other observations

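Smaller groups of genes fell on both sides in hot-spot squares. Of 19 measured hypoxia and glycolysis genes, 3 were at least 2-fold higher, the vessel-dilating peptide gene Adm at 1.53 (1.08 to 1.95), the lactate exporter gene Slc16a3 at 1.36 and Ndrg1 at 1.10, while the list's median was 0.08. Of 18 measured cell death genes, 3 were at least 2-fold higher, the inflammatory caspase gene Casp4 at 1.06 and the survival genes Bcl2a1a and Bcl2a1b at 1.09 and 1.03, which are near copies between which reads can be split. The complement list held 1 such gene of 10, where 3.13% of all measured genes are, C5ar1, the receptor by which C5a draws neutrophils, at 1.42 (1.06 to 1.76).

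Of 16 measured genes of metal and oxidant handling, Hmox1, which breaks down haem, stood at 1.29 (0.78 to 1.76), although at -0.34 in sector 4, and Nqo1, a quinone reductase, at -1.20 on 8 and 583 counts. The genes of antigen presentation by MHC class II had a median log2 ratio of 0.70 with none of 5 measured genes past 2-fold. No gene of the dendritic cell or eosinophil lists reached 400 counts.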
